A study of Mus musculus with 10 samples.

Results

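The regions described here are 9644 H3K4me3 peaks of untreated mouse embryonic stem cells that were under 4000 bp wide and overlapped, by at least 1 bp, a peak of RNA polymerase II (Pol II) and a peak of H3K79me2, but no peak of H3K27me3. They made up 25.1% of the 38421 H3K4me3 peaks in the untreated list and are called marked peaks below. The cells were of the R1E line, on a mixed C57BL/6 and 129Sv background, at under 20 passages, grown with serum and leukemia inhibitory factor. One set of cells received 0.5 uM Adriamycin (doxorubicin, a topoisomerase II poison that breaks DNA) for 8 h, and the other set was left untreated. ChIP-seq of H3K4me3, Pol II, H3K79me2, H3K27me3 and hnRNP L was done once in each condition, which gave 10 peak lists from 10 libraries. With 1 library per target and condition there was no replicate check and no test of the treatment.

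Trimethylation of histone H3 at lysine 4 is laid down at promoters, where Pol II starts transcription and often pauses. Dimethylation of lysine 79, made by the methyltransferase DOT1L, spreads from the start of a transcribed gene into its body. The Polycomb mark H3K27me3 is found at silenced promoters, and together with H3K4me3 it defines the bivalent promoters of embryonic stem cells. The combination selected here, with H3K27me3 left out, is the textbook pattern of a promoter in use. No mm9 gene annotation was used here, so overlap with gene starts was not checked and the genes are not named.

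The marked peaks were chosen by the width of the untreated H3K4me3 peak and by the untreated Pol II, H3K79me2 and H3K27me3 lists, so their untreated values are a description. Of the 38421 H3K4me3 peaks, 36719 were under 4000 bp wide, 21889 of these held Pol II, 10659 of these also held H3K79me2, and 9644 remained once those with H3K27me3 were set aside. Their median width was 2132.5 bp (quartiles 1425.75 and 2778 bp). Their median H3K4me3 score was 3100, a value at which the scale piles up (9209 untreated H3K4me3 peaks had it or a higher one), and the lower quartile was 312.51. The score, which the authors' peak caller gave to each peak, rises with the evidence for the peak and ranks peaks within a list. Where a region's scores from both conditions are printed, each belongs to its own list, and the pair does not measure a change. The highest Pol II peak at a marked peak had a median score of 901.335, and the highest H3K79me2 peak one of 1420.57. At the width limit, 97 marked peaks were at most 100 bp below it, and 99 peaks less than 100 bp above it met every other criterion. In coordinates of the mouse build mm9, counted from 1, the widest marked peaks, of 3999 bp each, lay on chromosome 4 at 11503805-11507803 and chromosome 7 at 3615354-3619352. The nearest peaks outside the limit, of 4000 and 4001 bp, lay on chromosome 4 at 133565667-133569666 and chromosome 1 at 63245367-63249367.

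Marked peaks were not independent of each other. They touched 11779 Pol II peaks, of which 271 touched more than 1 marked peak. When H3K79me2 peaks were joined over gaps of up to 3 kb, the marked peaks lay in 6607 such domains, and 1674 of these held at least 2 marked peaks. The domain with the most, 19, spanned 211.6 kb on chromosome 11 at 107121777-107333376. After Adriamycin all 19 still overlapped H3K79me2 and 16 overlapped H3K4me3, but 4 overlapped Pol II.

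The marked peaks took up different places in the H3K79me2 domains. At 5556 of them (57.6%) the domain reached less than 1 kb beyond the peak on its shorter side, so the peak sat at a domain edge. The other 4088 lay inside a domain, and at 2369 marked peaks (24.6%) the domain ran on for at least 5 kb on both sides. Edge peaks were wide and strong, with a median width of 2349 bp and a median score of 3100. Interior peaks had a median width of 1546.5 bp and a median score of 318.99. Of marked peaks with an H3K4me3 score of 1000 and above 78.2% were at an edge, against 13.5% of those with a score of 50 to 100. That H3K79me2 ran on beyond both sides of interior peaks, and not of edge peaks, is how the split was made and is a description. At 902 edge peaks the domain reached under 2 kb on its longer side too. Among interior peaks, 1348 had an H3K4me3 score of 1000 and above. Whether either kind lies at gene starts was not checked.

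The first comparison asked how many marked peaks still carried each target after Adriamycin. A target is called kept where a peak of it in the Adriamycin list overlapped the marked peak by at least 1 bp. H3K79me2 was kept at 8737 of 9644 marked peaks (90.6%, exact 95% interval 90.0 to 91.2%), H3K4me3 at 8559 (88.7%, 88.1 to 89.4%) and Pol II at 7806 (80.9%, 80.1 to 81.7%). Pol II was therefore missing from 1838 marked peaks, more than H3K4me3 (1085) or H3K79me2 (907). The whole Pol II list was shorter after Adriamycin, with 59426 peaks against 81069 in untreated cells. The lists of H3K4me3 (41705 against 38421) and H3K79me2 (71959 against 63053) were longer. When each target had equal numbers of top-scoring peaks in both lists, the shares were closer, at 84.5% for Pol II, 88.9% for H3K79me2 and 88.6% for H3K4me3. Among all untreated H3K4me3 peaks that carried the target, H3K79me2 was kept at 90.2%, H3K4me3 at 85.5% and Pol II at 75.5%. The share for H3K79me2 was thus near that background, and the shares for H3K4me3 and Pol II were above it. These intervals reflect counting error alone, and say nothing of how much separate cultures would vary. They treat marked peaks as independent, which peaks that share a domain are not, so they may be too narrow.

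All 3 targets were found after Adriamycin at 6822 of 9644 marked peaks (70.7%, 69.8 to 71.6%). Over all untreated H3K4me3 peaks with Pol II and H3K79me2 they were found at 9004 of 12250 (73.5%). Most of those 12250 are the marked peaks themselves, so the share among the rest was above 73.5%. Among marked peaks that lacked at least 1 target after Adriamycin, the most frequent pattern was Pol II alone missing, at 963 (9.99% of all marked peaks). H3K4me3 and Pol II were missing together, with H3K79me2 still there, at 602 (6.24%), H3K79me2 alone was missing at 595 (6.17%) and H3K4me3 alone at 350 (3.63%). Only 94 (0.975%) had none of the 3. The shares of these patterns over all untreated H3K4me3 peaks with Pol II and H3K79me2 were not computed. The counts thus describe the marked peaks alone. Of the 3 targets, only Pol II had fewer peaks in its Adriamycin list than in its untreated list. H3K4me3 was present at 62.1% of marked peaks without Pol II after Adriamycin (59.9 to 64.4%) and at 95.02% of those that kept it (94.5 to 95.5%). H3K79me2 differed less, with 85.1% (83.4 to 86.7%) and 91.9% (91.2 to 92.5%). Peaks that lost Pol II had been weak in untreated cells, with a median Pol II score of 123.21, against 1229.45 where Pol II was kept. Within a narrow range of untreated Pol II score, 200 to 500, H3K4me3 was still kept at 64.9% of the marked peaks without Pol II (59.9 to 69.7%) and at 92.0% of those with it (90.3 to 93.5%). These subsets still differed in untreated Pol II score, with a median of 278.79 without Pol II and 341.28 with it. They were not alike in H3K4me3 either, with a median untreated score of 282.26 without Pol II and 1348.17 with it. The share at a domain edge was 35.8% and 56.1%. The part of these differences in the retention of H3K4me3 was not tested.

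**Figure D1:**
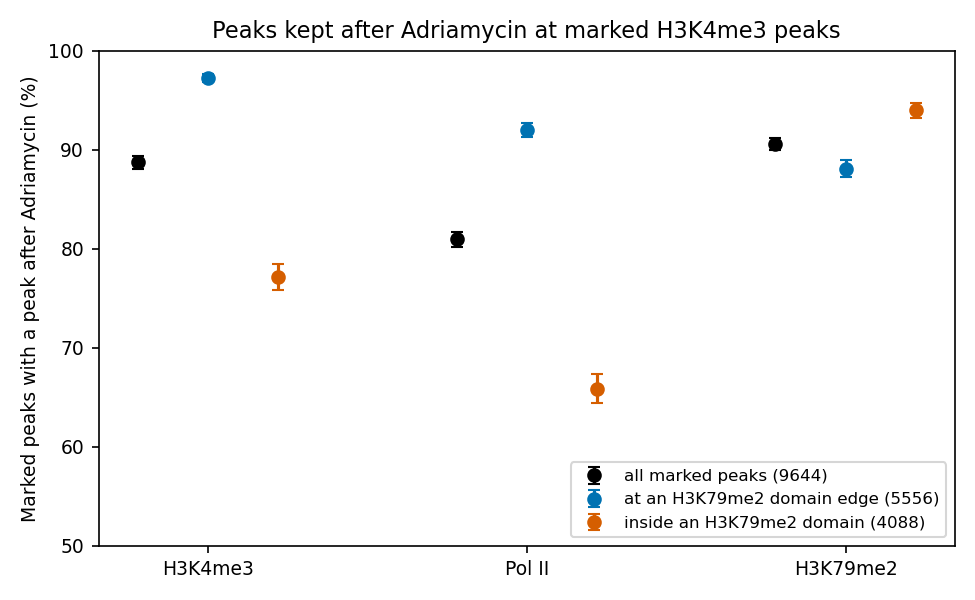
Share of marked peaks (vertical axis, percent, from 50 to 100) that overlapped an H3K4me3, Pol II or H3K79me2 peak after Adriamycin, for all marked peaks, those at an H3K79me2 domain edge and those inside a domain; bars are exact 95% intervals. Pol II was kept at 92.0% of edge peaks and 65.9% of interior peaks, and H3K79me2 at 88.1% and 94.0%. The split was made with the untreated H3K79me2 list.

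Edge peaks kept Pol II and H3K4me3 at a larger share than interior peaks, and H3K79me2 at a smaller one. Pol II was kept at 92.0% of edge peaks (91.3 to 92.7%) and at 65.9% of interior peaks (64.4 to 67.3%). H3K4me3 was kept at 97.3% (96.8 to 97.7%) and 77.2% (75.8 to 78.4%). H3K79me2 was kept at 88.1% (87.2 to 88.9%) of edge peaks and 94.0% (93.2 to 94.7%) of interior peaks. The untreated H3K79me2 list itself made this split. Its peaks covered a median of 64.8% of an edge peak and 100% of an interior one, so the difference in H3K79me2 retention is a description. Untreated scores differed along the same split, and their part in the kept shares was examined within ranges of score. The median Pol II score was 1220.14 at edge peaks and 366.68 at interior peaks, and the median H3K79me2 score 909.345 and 2387.63. At Pol II scores of 200 to 500, Pol II was kept at 82.4% of edge peaks (79.5 to 85.0%) and 67.1% of interior peaks (63.6 to 70.4%). Within ranges of untreated H3K4me3 score the Pol II gap was smaller than over all marked peaks in each of the 5 ranges. At H3K4me3 scores of 100 to 200 Pol II was kept at 65.2% of edge peaks (57.1 to 72.6%) and 46.8% of interior peaks (43.2 to 50.5%), at 500 to 1000 at 65.5% (58.5 to 72.03%) and 67.9% (62.9 to 72.7%), and at 1000 and above at 96.3% (95.7 to 96.8%) and 93.7% (92.3 to 94.9%). The edge and interior shares for H3K4me3 lay closer together at like H3K4me3 score than over all marked peaks, with overlapping intervals. They were 49.6% (41.1 to 58.2%) and 40.8% (37.6 to 44.1%) at 50 to 100. At 100 to 200 they were 71.6% (63.8 to 78.6%) and 62.3% (58.7 to 65.9%). The shares were 87.3% (82.1 to 91.5%) and 83.9% (81.0 to 86.4%) at 200 to 500, and 96.1% (92.4 to 98.3%) and 97.6% (95.4 to 98.9%) at 500 to 1000. For H3K79me2 at scores of 200 to 500 the shares were 89.9% (87.6 to 91.8%) and 88.1% (84.4 to 91.1%), with overlapping intervals.

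Retention rose with score for each target. Pol II was kept at 25.5% of marked peaks with an untreated Pol II score of 50 to 100, 44.3% at 100 to 200, 74.9% at 200 to 500, 93.0% at 500 to 1000 and 98.6% at 1000 and above. H3K4me3 was kept at 42.0% of marked peaks with an H3K4me3 score of 50 to 100 and at 6191 of 6194 with a score of 1000 and above. H3K79me2 was kept at 48.0% at the lowest scores and at 98.9% at the highest.

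Other kinds of H3K4me3 peak were set beside the marked peaks. Among 7748 peaks under 4000 bp with Pol II but neither H3K79me2 nor H3K27me3, Pol II was kept at 65.6% (64.6 to 66.7%). Among 1455 peaks of 4000 bp or more that met the other criteria it was kept at 94.98% (93.7 to 96.0%), and among 1015 peaks under 4000 bp that carried Pol II, H3K79me2 and H3K27me3 at 88.3% (86.1 to 90.2%). The untreated Pol II score had a median of 901.335 at marked peaks and 276.315 at peaks without H3K79me2. At scores of 200 to 500 Pol II was kept at 74.9% of marked peaks (72.6 to 77.0%) and 74.3% of peaks without H3K79me2 (72.3 to 76.3%), and at 100 to 200 at 44.3% and 44.8%. At 200 to 500 it was kept at 86.7% of peaks with H3K27me3 (81.2 to 91.0%). For H3K4me3 itself, at H3K4me3 scores of 100 to 200, the shares were 64.0% of marked peaks (60.7 to 67.1%) and 75.9% of peaks without H3K79me2 (73.6 to 78.1%).

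**Figure D2:**
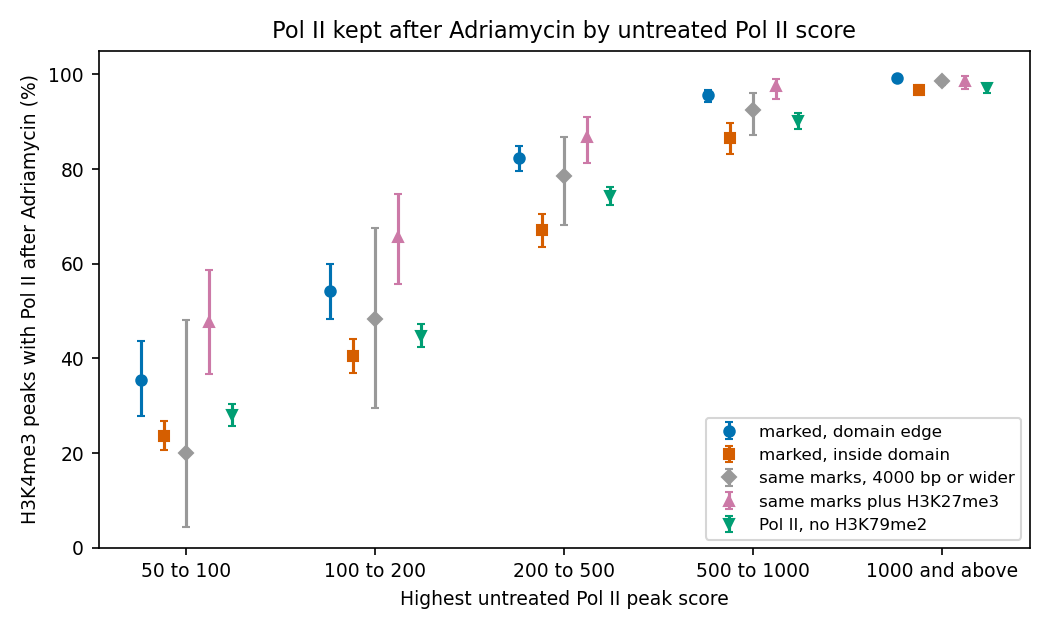
Share of untreated H3K4me3 peaks with a Pol II peak after Adriamycin (vertical axis, percent) by the highest untreated Pol II score at the peak (horizontal axis, 5 score ranges), for marked peaks at a domain edge, marked peaks inside a domain and 3 other kinds of H3K4me3 peak; bars are exact 95% intervals. At scores of 200 to 500 edge peaks kept Pol II at 82.4% and interior peaks at 67.1%, and at 1000 and above each of the 5 kinds lay above 96%.

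The second comparison asked how much of each marked peak the targets covered. Pol II peaks covered 47.0% of the bases of marked peaks after Adriamycin, against 62.5% in the untreated list, and H3K79me2 peaks covered 61.5% and 70.0%. Adriamycin H3K4me3 peaks covered 81.9% of the same bases. The rule required untreated Pol II and H3K79me2 at every marked peak, and the untreated H3K4me3 peak covers all of its own bases. A lower coverage in the Adriamycin lists is thus partly built in, and its direction is a description. At edge peaks Pol II covered 48.6% after Adriamycin and 59.6% in untreated cells, a ratio of 0.817. At interior peaks it covered 44.1% and 67.8%, a ratio of 0.652. The H3K4me3 peak itself was narrower after treatment at 5446 of the 7436 marked peaks that matched a single Adriamycin peak (73.2%), and at 14896 of 22274 other H3K4me3 peaks (66.9%). Their median width was 2034.5 bp after Adriamycin and 2202 bp in untreated cells, and the median difference was -149 bp (quartiles -352 and 13 bp). In the same range of untreated width, 2000 to 3000 bp, the median difference was -142 bp over 3091 marked peaks and -117 bp over 2507 other H3K4me3 peaks. At 874 marked peaks the Adriamycin list held more than 1 H3K4me3 peak.

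The third comparison read all lists around the marked peaks, with each peak turned so that the longer side of its untreated H3K79me2 domain pointed downstream. That choice used the H3K79me2 list of untreated cells alone. The H3K79me2 asymmetry at edge peaks, and a domain start near them, are largely set by it and by the edge limit, and are a description. At edge peaks Pol II sat upstream of the centre of the H3K4me3 peak, on the side away from H3K79me2. The centre of the strongest Pol II peak lay upstream at 4139 of 5113 edge peaks (81.0%) after Adriamycin and at 4439 of 5556 (79.9%) without it. The median offset was -261.5 bp after Adriamycin and -271 bp in untreated cells. The H3K79me2 domain began a median of 344 bp upstream of the H3K4me3 centre after Adriamycin (a position of -344 bp) and at -394.75 bp in untreated cells. Where both lists had a domain, its start lay a median of 62 bp farther downstream after Adriamycin (quartiles -23 and 201 bp).

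Around edge peaks Pol II coverage was lower after Adriamycin in every 1 kb bin within 20 kb of the centre, with the smallest relative difference just upstream of it. In the 1 kb just upstream of the centre of edge peaks, Pol II peaks covered 69.2% of bases after Adriamycin and 79.7% in untreated cells, a ratio of 0.868. In the 1 kb just downstream they covered 37.3% and 47.5%, a ratio of 0.784. From 2 to 5 kb downstream they covered 13.2% and 21.2%, a ratio of 0.623, and from 50 to 100 kb 8.03% and 11.3%, a ratio of 0.708. H3K79me2 coverage differed more than Pol II in the 1 kb just upstream of the centre, with 31.3% after Adriamycin and 40.6% in untreated cells, a ratio of 0.771, and less from 2 kb downstream on. It covered 68.6% after Adriamycin and 71.5% in untreated cells from 2 to 5 kb, a ratio of 0.958, and 34.3% and 36.6% from 10 to 20 kb, a ratio of 0.936. Peaks are called where signal passes a threshold, and Pol II in gene bodies is weaker than at promoters, so a fall in coverage there does not measure a fall in Pol II occupancy of the same size. The Pol II list held 59426 peaks after Adriamycin and 81069 in untreated cells, and covered 54.7 and 77.4 Mb in all. The whole H3K79me2 list covered 130.1 Mb after Adriamycin and 138.9 Mb in untreated cells. A lower coverage is thus not particular to the surroundings of marked peaks. Whether depth differed was not tested, since read depth is unknown.

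Around the 4088 interior peaks, Pol II covered 41.8% of the 1 kb upstream of the centre after Adriamycin and 65.5% in untreated cells, a ratio of 0.639. The neighbouring 2 to 5 kb on the downstream side had 21.3% and 36.1%, a ratio of 0.592. H3K79me2 covered fewer bases at the centre of interior peaks than beside it. In the 1 kb downstream of the centre it covered 78.2% after Adriamycin and 86.0% in untreated cells, and between 2 and 3 kb downstream 85.4% and 90.4%. H3K27me3 was more frequent upstream than downstream of edge peaks. From 10 to 20 kb upstream its peaks covered 5.43% of bases after Adriamycin and 6.93% in untreated cells, and from 10 to 20 kb downstream 2.42% and 3.06%. Untreated H3K79me2, which set the sides, covered 13.4% of the upstream window and 36.6% of the downstream one. The H3K27me3 difference is thus a description, and its link to the orientation was not tested. The whole H3K27me3 list covered 75.3 Mb after Adriamycin and 101.0 Mb in untreated cells.

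**Figure D3:**
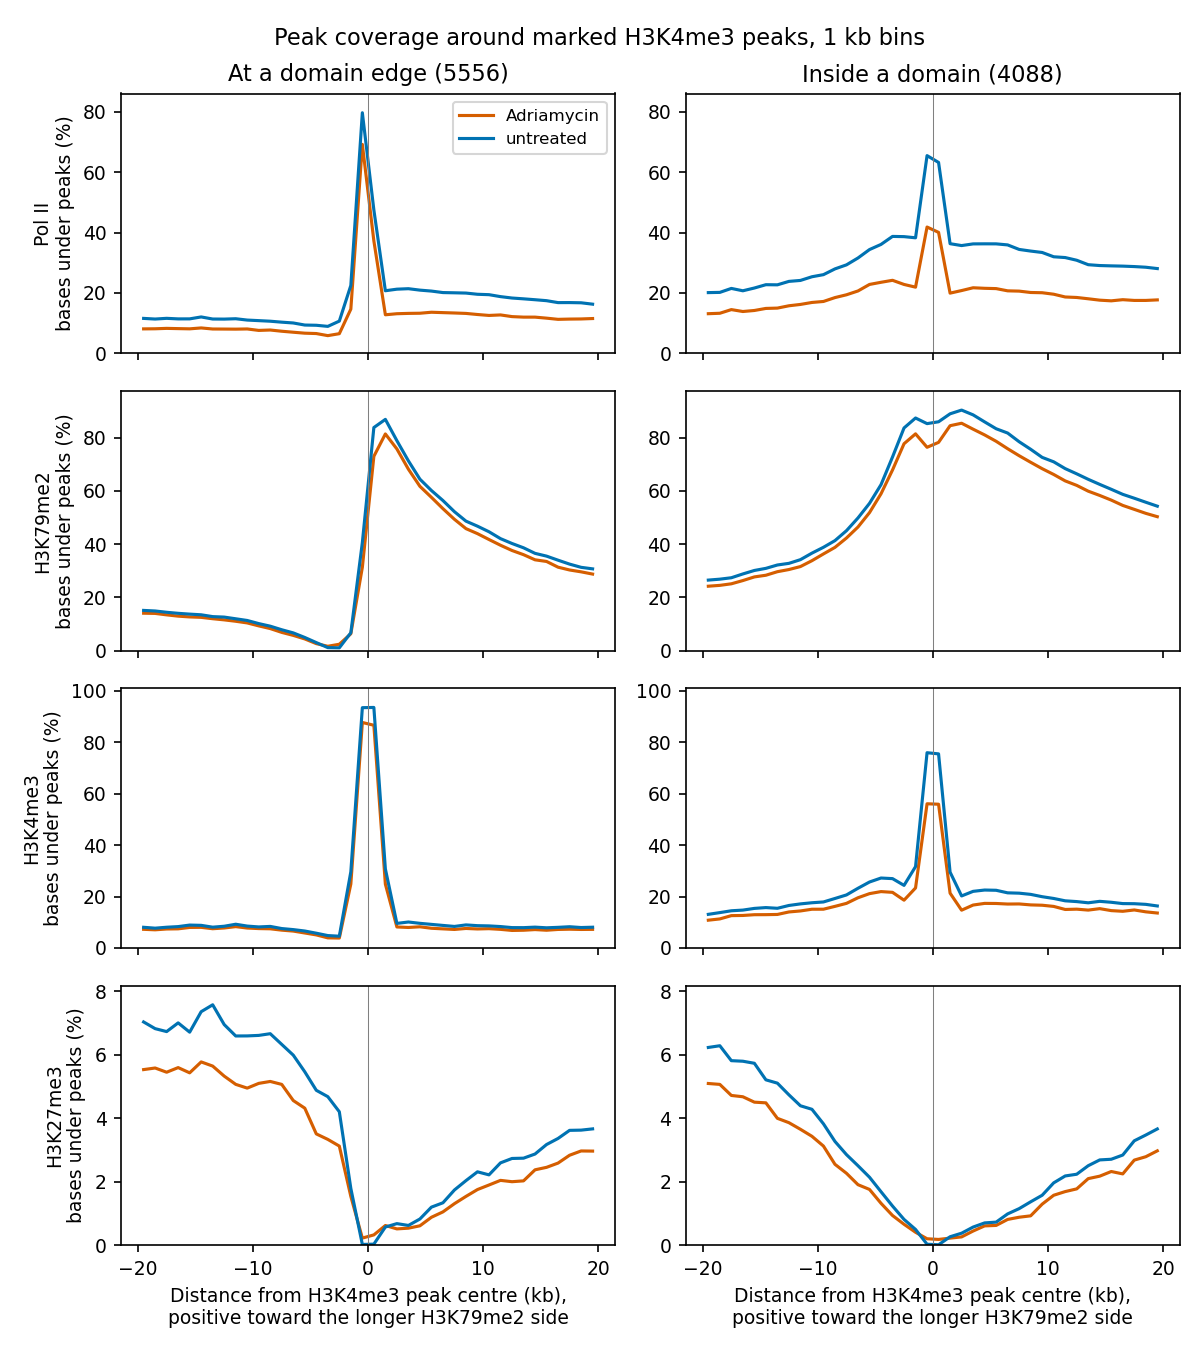
Percent of bases under Pol II, H3K79me2, H3K4me3 and H3K27me3 peaks (vertical axes, different scales) in 1 kb bins from -20 to 20 kb around the H3K4me3 peak centre (horizontal axis, positive toward the longer H3K79me2 side), for marked peaks at a domain edge (left) and inside a domain (right), for the Adriamycin and the untreated lists. At edge peaks Pol II coverage was highest just upstream of the centre, at 69.2% after Adriamycin and 79.7% in untreated cells. H3K79me2 coverage was highest downstream of it, the side that the orientation sets.

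The downstream reach of H3K79me2, from the rim of the marked peak to the end of the domain, was little changed at most marked peaks and shortened at some with a long reach. The median reach was 12.5 kb after Adriamycin over 8860 marked peaks that still touched a domain, and 13.1 kb in untreated cells over all 9644. The median difference was -101 bp (quartiles -1333.25 and 153.5 bp), and -185 bp with equal numbers of top-scoring peaks in both lists. The reach was shorter by at least 5 kb at 1088 of the 8860 (12.3%) and longer by at least 5 kb at 462 (5.21%). Shortening by that much was seen at 4.32% of marked peaks with an untreated reach of 5 to 10 kb and at 32.2% of those with 50 kb and above (29.0 to 35.6%). Lengthening was seen at 4.86% and 9.01%. A short reach leaves little length to lose, and the untreated reach set this order, so it is a description. The downstream side was also chosen as the longer one in untreated cells. That choice favours a shorter reach in the Adriamycin list even without a change.

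Retention at the marked peak also went with reach. H3K79me2 was kept at 71.8% of marked peaks with a reach under 2 kb (68.8 to 74.6%) and at 95.3% with 50 kb and above (93.6 to 96.7%). Pol II was kept at 85.7% (83.2 to 87.9%) and 60.8% (57.4 to 64.2%), and H3K4me3 at 95.5% and 78.6%. Reach was measured on the untreated H3K79me2 list, so the order for H3K79me2 itself is a description. The median untreated Pol II score was 965.305 at the short reaches and 259.985 at the long ones, and 97.2% and 29.0% were edge peaks. Among marked peaks with a Pol II score of at least 1000, Pol II was kept at 99.1% (97.8 to 99.8%) and 96.5% (92.9 to 98.6%). The longest untreated reach, 231.498 kb after Adriamycin against 207.585 kb without it, belonged to an edge peak on chromosome 11 at 107329362-107332949. It kept H3K4me3 (score 3100 in both lists) and had no Pol II peak after Adriamycin, against a Pol II score of 751.18 in untreated cells, and the nearest Adriamycin Pol II peak was 7474 bp away.

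**Figure D4:**
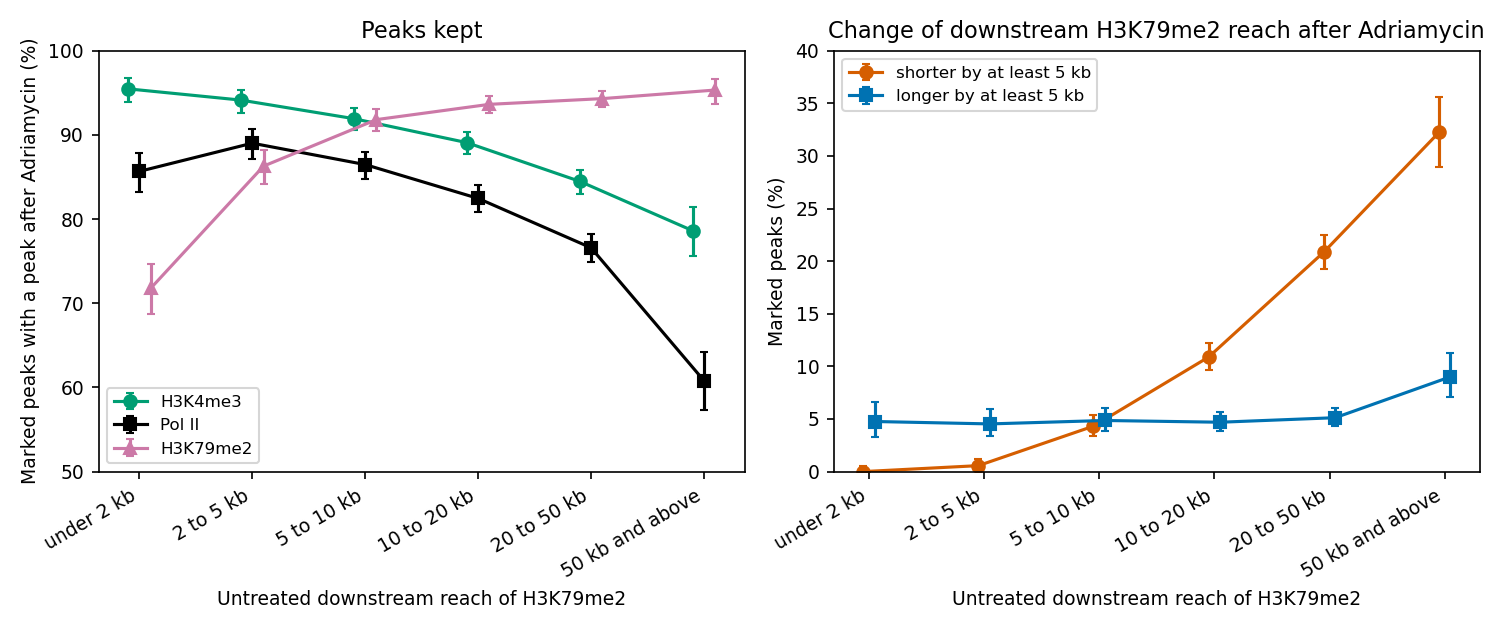
Marked peaks by the downstream reach of untreated H3K79me2 (horizontal axes, 6 ranges). Left, percent that kept H3K4me3, Pol II and H3K79me2 after Adriamycin, from 60.8% for Pol II at reaches of 50 kb and above to 95.5% for H3K4me3 at reaches under 2 kb; right, percent whose reach was shorter or longer by at least 5 kb, 32.2% and 9.01% at 50 kb and above. Bars are exact 95% intervals.

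The 3 marked peaks chosen for the highest untreated Pol II score, 3233.06 each, still had Pol II after Adriamycin. Their Adriamycin scores were 1338.15 on chromosome 15 at 76179835-76183103, 1147.27 on chromosome 5 at 145528395-145530814 and 824.32 on chromosome 7 at 20505118-20507681. H3K4me3 and H3K79me2 were kept at all 3.

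Single regions without an overlap were then read one by one. The strongest Pol II peak without an Adriamycin partner at its marked peak, with a score of 3104.46, lay over an interior peak on chromosome 2 at 162895243-162896093. The nearest Adriamycin Pol II peak was 382 bp away, and H3K4me3 was weak in both lists (76.06 after Adriamycin and 75.86 in untreated cells). The next, an interior peak on chromosome 11 at 77972984-77974191, had its nearest Adriamycin Pol II peak 5980 bp away. Its H3K79me2 domain reached 11.28 kb after Adriamycin and 65.034 kb in untreated cells. The third lay on chromosome 13 at 19617622-19618959, where H3K4me3 was missing after Adriamycin too and the nearest Pol II peak was 482 bp away. A score belongs to the whole Pol II peak, of which only part may overlap the marked peak.

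Near misses were frequent for H3K79me2. Of the 907 marked peaks without an overlapping H3K79me2 peak after Adriamycin, 534 (58.9%) had one within 1 kb. For H3K4me3 that share was 28.2% and for Pol II 21.1%. The 3 marked peaks with the strongest lost H3K79me2, each with a score of 3100 in untreated cells, had an Adriamycin H3K79me2 peak at 127, 125 and 435 bp. The first was chromosome 10, 75507685-75508784, the second chromosome 13, 101556655-101557122, and the third was found at chromosome 14, 54852762-54854489. The one on chromosome 13 was 468 bp wide and overlapped an H3K4me3 peak with a score of 3100 in the Adriamycin list, against its own score of 94.4.

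H3K4me3 was missing after Adriamycin from 3 marked peaks with a score of 1000 and above. The first, with a score of 1458.9, lay on chromosome 7 at 52810012-52812186. The second, with 1432.41, lay on chromosome 2 at 166019405-166022141, and the third, with 1352.03, on chromosome 8 at 72999621-73002409. Pol II was missing from each of them as well. Untreated Pol II scores there were 541.15, 256.25 and 792.33. H3K79me2 was kept on chromosome 7 (581.7 after Adriamycin and 1471.74 in untreated cells) and chromosome 2 (283.06 and 363.05), and not on chromosome 8. The region on chromosome 2 had the farthest neighbours, with the nearest Adriamycin H3K4me3 peak at 19838 bp and the nearest Pol II peak at 46487 bp.

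H3K27me3, absent from marked peaks by the rule, was found at 99 of them after Adriamycin (1.03%, 0.835 to 1.25%). Among all untreated H3K4me3 peaks without H3K27me3 the share was 2.05%, so the share at marked peaks was below the background. It was 3.83% where an H3K27me3 peak within 1 kb counted, which takes in places with untreated H3K27me3 that close. Most of these H3K27me3 peaks were weak, with a median score of 75.57. They lay near H3K27me3 of untreated cells. The nearest untreated H3K27me3 peak was a median of 5025 bp away, and at most 5 kb away in 49 of 99 (49.5%), against 25003 bp and 14.3% for the 9545 other marked peaks. Pol II was kept at 86 of the 99, H3K4me3 at 94 and H3K79me2 at 83. The highest H3K27me3 score, 3100, was reached on chromosome 17 at 45685057-45687511. That edge peak kept H3K4me3 (3100 in both lists) and lost Pol II (347.09 in untreated cells) and H3K79me2 (103.03). On chromosome 8 at 97854602-97857234, with an H3K27me3 score of 2557.91 after Adriamycin, all 3 targets were kept, with Pol II at 529.59 after Adriamycin and 993.77 in untreated cells. The third, on chromosome 11 at 84325963-84327893, had an H3K27me3 score of 480.92 and also kept all 3.

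hnRNP L, an RNA-binding protein that regulates splicing, had short lists, with 1022 peaks after Adriamycin and 1120 in untreated cells. Its peaks overlapped 8 of 9644 after Adriamycin (0.083%, 0.0358 to 0.163%) and 10 in untreated cells (0.104%, 0.0497 to 0.191%), with 6 in both. Among all untreated H3K4me3 peaks these shares were 0.104% and 0.109%, so rare overlap was not particular to marked peaks. The strongest, with an hnRNP L score of 419.9 after Adriamycin and 60.87 in untreated cells, lay on chromosome 4 at 145263672-145265035. Others lay on chromosome 8 at 72107653-72109371 (150.68 and 312.5), on chromosome 4 at 146604976-146606848 and 146608131-146609747, which shared 1 hnRNP L peak after Adriamycin (229.16), and on chromosome 7 at 97590564-97594144 (212.02 and 67.15).

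Chromosome X stood at the high end for Pol II. Marked peaks there numbered 211, and Pol II was kept at 188 of them (89.1%, 84.1 to 93.0%), against 80.8% on the numbered autosomes (79.9 to 81.5%), where single chromosomes ranged from 75.9% (chromosome 13) to 85.6% (chromosome 16). Edge peaks made up 82.9% of marked peaks on X and 57.0% on the autosomes. Among edge peaks alone Pol II was kept at 90.9% on X (85.6 to 94.7%) and 92.1% on the autosomes (91.3 to 92.8%), with overlapping intervals. Among interior peaks it was kept at 29 of 36 on X (80.6%, 64.0 to 91.8%) and at 65.7% on the autosomes (64.3 to 67.2%), again with overlapping intervals. The covered length of the whole Pol II list on X had a ratio of Adriamycin to untreated of 0.594, whereas within marked peaks of X the ratio was 0.774. This order was not particular to X. The ratio within marked peaks was the higher one on every chromosome, for example 0.728 against 0.604 on chromosome 3. Within marked peaks of the numbered autosomes it ranged from 0.704 (chromosome 13) to 0.796 (chromosome 16). H3K79me2 was kept at 85.8% of marked peaks on X (80.3 to 90.2%) and at 90.7% on the autosomes (90.1 to 91.3%).

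The same rule applied to the 4 Adriamycin lists alone gave 8840 peaks, 21.2% of the Adriamycin H3K4me3 peaks. Of these, 6613 (74.8%) overlapped a marked peak, and 6478 of the 9644 marked peaks (67.2%) overlapped 1 of them. Of the 2227 without a marked peak, 1765 (79.3%) overlapped an untreated H3K4me3 peak, 1957 (87.9%) untreated Pol II and 1879 (84.4%) untreated H3K79me2. An untreated H3K4me3 peak of 4000 bp or more lay at 1045 of them (46.9%). Untreated H3K27me3 lay at 244 (11.0%).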

How the data were processed

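The authors deposited 1 peak list for each of 10 ChIP-seq libraries, with a score per peak. CASAVA 1.8.2, MACS 1.4.1 and the build mm9 are named in the submitters' processing notes. The score is read here as 10 times the negative log10 of a p-value, the scale of this MACS generation, and no deposited score was below 50. For read depth, input and duplicate handling, nothing is given in the sources used here, and how sensitive each list was is unknown. A list called on its own moves peak borders and drops weak peaks, which bears on every share given here.

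An overlap was 1 bp or more. Intervals on shares are 95% Clopper-Pearson ones. H3K79me2 peaks were joined over gaps of up to 3 kb. Marked peaks and measures were chosen with earlier results of these data known, and the edge limit of 1 kb, the reach ranges, the comparison of chromosome X and the near misses were chosen after values were seen. Named regions are the top 3 (5 for hnRNP L, 2 for width) of each kind by score, reach or width, and the text prints part of them. On simulated lists of 5000 peaks with 2000 planted overlaps, 2000 were recovered. Tables were handled with pandas 2.3.3 on Python 3.11.15, intervals came from SciPy 1.17.1 with numpy 2.4.6, and plots from matplotlib 3.10.9. Coordinates are 1-based. Alternatives covered overlap, score, list length, merging, width, chromosomes and window. Planned gene lists and sequence counts needed mm9 references and were not run.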

Additional observations from a re-analysis of the deposited data

How the results depend on the processing

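The median differences in width and reach stayed negative under every alternative run for them. For reach, every alternative kept the choice of the longer untreated side, which favours a negative sign. Pol II was kept at 82.4% of marked peaks with scores of at least 100, 84.5% with equal numbers of top-scoring peaks, 84.1% with peaks within 1 kb merged, 78.2% with widths under 3000 bp and 84.9% when a peak within 1 kb counted. H3K79me2 was kept at 84.3% when the shorter peak had to be overlapped by 50%, 88.9% with equal numbers, 89.3% under 3000 bp and 96.1% within 1 kb. H3K4me3 was kept at 92.4% with scores of at least 100, 92.0% merged, 86.5% under 3000 bp and 91.9% within 1 kb. H3K27me3 was found at 0.756% with scores of at least 100 and at 3.83% within 1 kb, which counts places that had untreated H3K27me3 that close. The median width difference was -138 bp merged, and the median difference in reach -185 bp with equal numbers. The cause of these shifts was not tested. The other 25 of the 42 planned values stayed within the interval of the main value, or within 1.5 times the count of 9644 (7535 to 9431). With the edge limit at 2 kb, 0 bp, or domains joined over up to 1 kb, chosen after seeing the data, edge peaks were 63.4%, 51.5% and 66.5%, and kept Pol II more often than interior ones by 28.5, 24.2 and 26.8 percentage points. No paired analysis was possible because each group had 1 library. Unknown depth limits all shares.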
